A study of Mus musculus with 10 samples.

Results

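The NF-kappaB genes described here were 10 of the 48321 gene symbols counted in every library. They comprise *Rel*, *Rela*, *Relb*, *Nfkb1* and *Nfkb2*, which encode the DNA-binding subunits, and *Nfkbia*, *Nfkbib*, *Nfkbie*, *Nfkbiz* and *Bcl3*, which encode IkappaB proteins. The rule that chose them was family membership, applied with earlier results of these data known, and 10 of 10 passed the filter on low counts. RNA-seq was available for CD4+ T cells from the spleens of C57BL/6 mice, sorted with a GFP reporter of *Foxp3* and an antibody to CD25. The comparison was between WT mice and *Satb1* F/F:*Thpok-cre* mice, called KO here, whose cre acts after commitment to the CD4 lineage and so also in non-Treg cells. The groups were WT FoxP3+CD25+ Tregs, WT FoxP3-CD25- non-Tregs, KO FoxP3+CD25+ Tregs, KO FoxP3-CD25- non-Tregs and KO FoxP3+CD25- cells, which carry FoxP3 without CD25, and each of the 5 groups had 2 libraries. All of them carried the reporter, the mice were young adults of mixed sexes, and no treatment is given. The labels do not state which libraries came from 1 mouse, so p-values below measure the spread between these libraries.

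NF-kappaB proteins bind DNA as dimers. In resting cells IkappaB-alpha, IkappaB-beta and IkappaB-epsilon (*Nfkbia*, *Nfkbib*, *Nfkbie*) hold the dimers in the cytoplasm until IkappaB kinases mark them for destruction, and *Nfkb1* and *Nfkb2* encode precursors that themselves act as inhibitors before they are processed to p50 and p52. IkappaB-zeta (*Nfkbiz*) and BCL-3 act in the nucleus on p50 or p52 dimers, and c-Rel, the product of *Rel*, is known for its part in *Foxp3* induction and in the generation and upkeep of Tregs. Several of these genes, *Nfkbia* above all, are textbook targets of NF-kappaB. RNA levels do not measure nuclear protein or its activity.

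The libraries held 6094952 to 12410064 reads assigned to genes. Both WT libraries numbered 1 expressed *Xist* at 14487 and 16362 reads with 0 reads of 4 Y-linked genes, whereas the other 8 libraries held at most 4 *Xist* reads, so that the WT groups each joined a female and a male sample and the KO groups did not. *Satb1* stood at 379 to 881 CPM (read counts scaled to a common library size with TMM factors) in WT and 534 to 1186 CPM in KO libraries. Gene-level counts add up all exons and do not separate the deleted part, so they do not check the deletion. The sort was visible in *Foxp3*, at 618 to 739 CPM in FoxP3+CD25+, 318 to 361 CPM in KO FoxP3+CD25- and 18.0 to 38.9 CPM in FoxP3-CD25- libraries. *Il2ra*, which encodes CD25, reached 627 to 760.2 CPM in FoxP3+CD25+ libraries and at most 16.8 CPM elsewhere. Of the 5 Treg markers, 5 were higher in Tregs than in non-Tregs of either genotype, but 1, *Foxp3*, was higher in KO FoxP3+CD25- cells than in KO non-Tregs, and their summed level was 2751 to 3411, 525 to 676 and 169 to 353 CPM in FoxP3+CD25+, KO FoxP3+CD25- and FoxP3-CD25- libraries. The summed levels of 9 myeloid markers stayed between 16.9 and 22.8 CPM, and among B cell markers *Ms4a1* stayed at or below 0.76 CPM, whereas *Cd79b* reached 0.83 to 19.1 CPM and *Ighm* 215 to 578 CPM.

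The promoters of 4 of the genes that were higher in WT Tregs are shown because NF-kappaB binds kappaB motifs and these genes hold one close to the start. RefSeq promoter windows (GRCm38.p6) existed for 7 of the 10 genes, none for *Nfkb1*, *Relb* and *Nfkbiz*. The kappaB consensus, searched on both strands within 250 bases before the start, matched in *Nfkb2*, *Rel*, *Nfkbia* and *Nfkbie* and not in *Rela*, *Nfkbib* or *Bcl3*, where 4.46% of all 27025 genes with a window held a match. With the 50 bases after the start included, *Bcl3* also matched, making 5 of 7 genes, against 5.14% of all genes. Capitals mark the match in sequences written 5′ to 3′ on the gene's strand. The *Rel* stretch (chr11:23770971-23771219, minus strand) has its match from position -92, counted from the start, where a forward and a reverse match overlap. The *Nfkbia* stretch (chr12:55492648-55492897, minus strand) matches on the opposite strand from position -29, and the *Nfkbie* stretch (chr17:45555450-45555699, plus strand) matches from position -106. The most upstream *Nfkb2* window matches at 2 places, from positions -39 and -11, and lies in annotated exons, so only sites of 30 bases are printed (chr19:46304689-46304718 and chr19:46304716-46304745, plus strand). A match describes the letters and says nothing on binding in these cells.
Rel: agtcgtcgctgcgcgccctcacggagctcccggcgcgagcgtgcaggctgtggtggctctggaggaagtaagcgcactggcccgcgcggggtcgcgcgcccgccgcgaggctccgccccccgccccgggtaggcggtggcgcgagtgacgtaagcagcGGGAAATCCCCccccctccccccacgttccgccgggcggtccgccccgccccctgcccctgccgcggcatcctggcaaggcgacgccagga
Nfkbia: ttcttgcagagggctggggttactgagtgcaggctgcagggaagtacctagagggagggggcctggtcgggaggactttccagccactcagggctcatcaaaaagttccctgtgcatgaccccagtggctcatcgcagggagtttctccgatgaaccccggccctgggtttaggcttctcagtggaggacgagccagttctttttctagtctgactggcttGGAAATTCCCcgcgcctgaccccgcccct
Nfkbie: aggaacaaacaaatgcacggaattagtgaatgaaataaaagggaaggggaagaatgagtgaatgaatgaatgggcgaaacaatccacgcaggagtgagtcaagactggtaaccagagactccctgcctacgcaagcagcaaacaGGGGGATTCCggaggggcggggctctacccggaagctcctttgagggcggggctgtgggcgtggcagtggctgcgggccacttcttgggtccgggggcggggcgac
Nfkb2 first site: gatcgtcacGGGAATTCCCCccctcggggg
Nfkb2 second site: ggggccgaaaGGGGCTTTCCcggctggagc

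Compared per kilobase of exon, *Nfkbia* had the highest level of the 10 genes in every group, at 335 ± 42.3 CPM per kilobase in WT Tregs and 177 ± 4.48 in WT non-Tregs (SD, n = 2). *Nfkbiz*, *Rela* and *Nfkb1* followed in WT Tregs, at 63.8 ± 2.19, 57.8 ± 2.36 and 50.3 ± 6.82 CPM per kilobase. The libraries of *Rela* and *Nfkb1* did not overlap there, but their order turned when the longest transcript set the length, since *Nfkb1* has 12061 bases of exon in all and 4149 in its longest transcript. *Nfkbib* was lowest in WT Tregs, at 16.3 ± 0.761 CPM per kilobase, and *Rel* was lowest in KO FoxP3+CD25- cells and KO non-Tregs, at 13.2 ± 0.974 and 13.2 ± 0.982. The plot of levels by library gives all 10 genes.

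**Figure D1:**
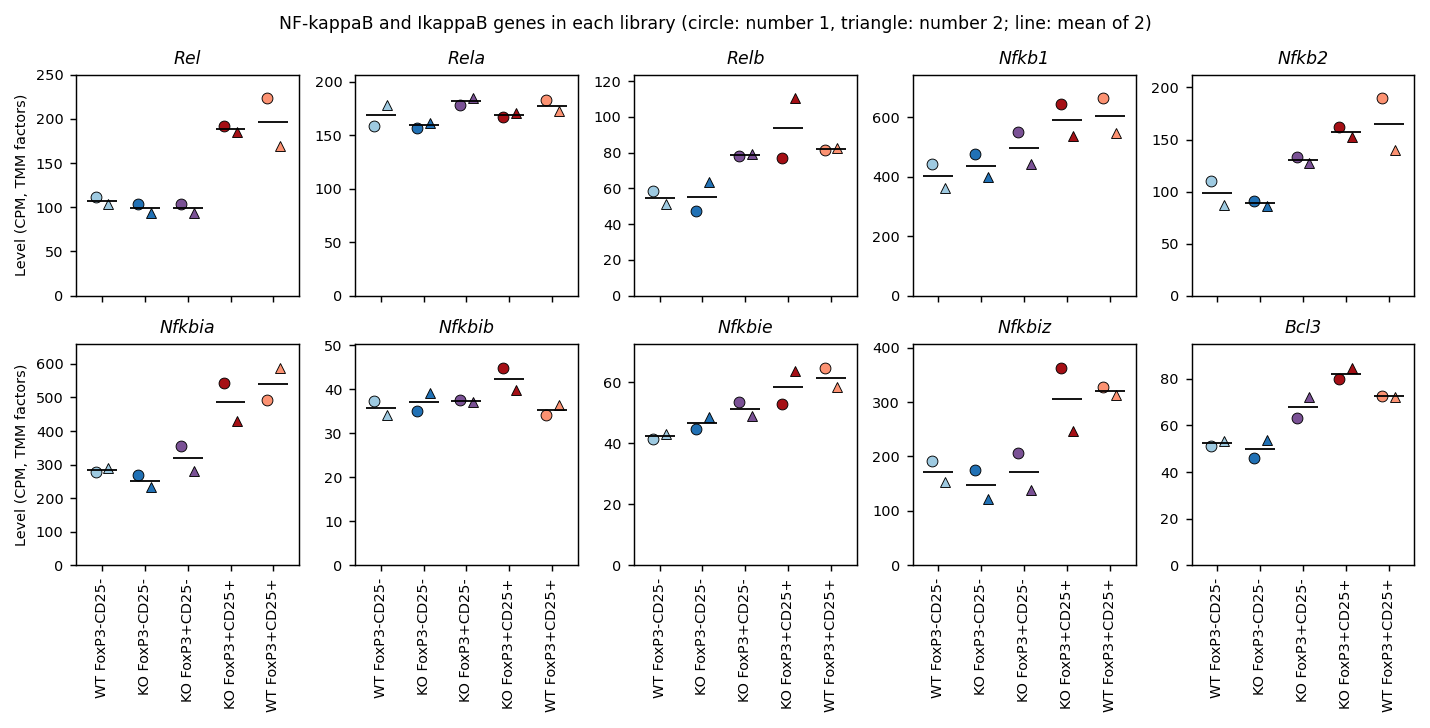
Level (CPM, TMM factors, linear axis from 0) of each gene in the 10 libraries, in 5 groups from WT non-Tregs at left to WT Tregs at right. Circles are number 1 and triangles number 2 of a group, and the line is the mean of 2. *Rel* sat at 169 to 223 CPM in the 4 Treg libraries and at 93.7 to 111 CPM in the other 6.

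The comparison of WT Tregs with WT non-Tregs asked how far the family differs between both lineages. Of the 10 genes, 7 were higher in Tregs and 0 lower, by 1.39 to 1.90-fold (edgeR quasi-likelihood test, FDR 0.05), where 7.15% of the 13796 genes tested were higher and 3.75% lower. In 8 genes both Treg libraries lay above both non-Treg libraries, as in 23.1% of the genes tested. The median log2 fold change was 0.59 over the 10 genes and -0.02 over all genes tested. In bulk RNA, more cells with a transcript and more transcript per cell cannot be told apart.

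Among the Rel-domain subunits that carry a transactivation domain, *Rel* differed most. *Rel* (chromosome 11, 23736847 to 23770970, minus strand, GRCm38) was at 223 and 169 CPM in the WT Treg libraries and 111 and 104 CPM in WT non-Tregs, with no overlap. The difference was 0.87 ± 0.13 on the log2 scale (SE, adjusted p = 0.00172, edgeR), or 1.82-fold. *Rela* (chromosome 19, 5637483 to 5648130, plus strand), which encodes p65, the usual partner of p50, was at 183 and 172 CPM in Tregs and 158 and 179 CPM in non-Tregs. These groups overlapped, and the log2 difference of 0.08 had a 95% interval from -0.14 to 0.29. *Relb* (chromosome 7, 19606217 to 19629438, minus strand), the partner of p52 in the non-canonical pathway, was at 81.4 and 82.7 CPM in Tregs and 58.6 and 51.1 CPM in non-Tregs. The groups did not overlap, but its log2 difference of 0.58 ± 0.18 did not pass the threshold (adjusted p = 0.0651, edgeR). *Relb* passed in 5 of 13 alternative settings. DESeq2, which calls *Relb*, gave 8 genes, where it called 931 of the 13796 genes tested higher.

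Both genes for precursors were higher in WT Tregs. *Nfkb2* (chromosome 19, 46304320 to 46312385, plus strand), which encodes p100 and p52, was at 189.6 and 139.7 CPM against 110.4 and 86.7 CPM, a log2 difference of 0.74 ± 0.15 (adjusted p = 0.00982, edgeR). *Nfkb1* (chromosome 3, 135584655 to 135691547, minus strand), which encodes p105 and p50, was at 664 and 548 CPM against 443 and 361 CPM, a log2 difference of 0.59 ± 0.16 (adjusted p = 0.0426, edgeR). For either gene the Treg libraries lay above both non-Treg libraries. *Nfkb2* shares 299 exon bases with *Psd* on the other strand, and whether the counting used strand is not given in the sources used here.

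Of the cytoplasmic inhibitors, *Nfkbia* and *Nfkbie* rose and *Nfkbib* did not pass. *Nfkbia* (chromosome 12, 55489410 to 55492647, minus strand) stood at 492 and 588 CPM in WT Tregs and 279 and 289.7 CPM in WT non-Tregs, a log2 difference of 0.92 ± 0.15 (adjusted p = 0.00274, edgeR). *Nfkbie* (chromosome 17, 45555703 to 45563169, plus strand) stood at 64.6 and 58.2 CPM against 41.4 and 43.1 CPM, a log2 difference of 0.54 ± 0.13 (adjusted p = 0.0196, edgeR). *Nfkbib* (chromosome 7, 28758251 to 28767512, minus strand) was at 34.2 and 36.5 CPM against 37.3 and 34.2 CPM. Its groups overlapped, and its log2 difference of -0.02 had a 95% interval from -0.30 to 0.26. *Nfkbib* shares 42 exon bases with *Sirt2* and 314 with *Ccer2*, both on the other strand.

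*Nfkbiz* and *Bcl3*, the nuclear IkappaB genes among the 10, both rose. *Nfkbiz* (chromosome 16, 55811375 to 55838899, minus strand) was at 328 and 313 CPM in WT Tregs and 192 and 153 CPM in WT non-Tregs, a log2 difference of 0.89 ± 0.23 (adjusted p = 0.0324, edgeR). *Bcl3* (chromosome 7, 19808462 to 19822770, minus strand) was at 72.7 and 72.3 CPM against 51.3 and 53.4 CPM, a log2 difference of 0.47 ± 0.12 (adjusted p = 0.0258, edgeR). Neither gene's groups overlapped, and *Bcl3* had the smaller difference and the smaller spread. *Nfkbid*, a further nuclear IkappaB gene outside the 10, did not pass and its groups overlapped (log2 difference 0.21, 95% interval -0.49 to 0.90).

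Like the count over all genes tested, the count of 7 moved when 1 library was left out. It was 2 without WT FoxP3+CD25+ replicate 1, 3 without WT FoxP3-CD25- replicate 1, 6 without WT FoxP3+CD25+ replicate 2, 2 without WT FoxP3-CD25- replicate 2, and 3 without both WT libraries numbered 1. *Rel* and *Nfkbia* passed in 13 of 13 alternative settings and with any 1 of 4 libraries left out, whereas *Nfkbiz* passed with 0 of 4 and *Nfkb1*, *Nfkbie* and *Bcl3* each with 1 of 4. Of the naive T cell markers, 4 of 5 were lower in WT Tregs, with a summed level of 2130 to 2502 CPM against 4279 to 4421 CPM. Of the handling and stress genes, *Dusp1* and *Fosb*, 2 of 10 tested, were also higher in Tregs, and the summed level of that list was 5192 to 5618 CPM in WT Tregs and 3806 to 5179 CPM in WT non-Tregs. Of the B cell markers, *Cd79b* and *Ighm*, 2 of 3 tested, were higher in WT Tregs, and the summed level of the 8 markers was 414 to 597 CPM against 304 to 329 CPM. The part of these in the NF-kappaB differences was not tested.

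In KO mice the same comparison called 6 of the 10 genes higher and 0 lower, where 3.52% of the genes tested were higher and 2.81% lower. *Rel* was at 192 and 185 CPM in KO Tregs and 104 and 93.7 CPM in KO non-Tregs, a log2 difference of 0.93 ± 0.14 (adjusted p = 0.00231, edgeR). *Nfkbia* was at 544 and 431 CPM against 269 and 233 CPM, a log2 difference of 0.96 ± 0.16 (adjusted p = 0.00403, edgeR). In fold terms these were 1.91 and 1.94, with the groups of either gene well apart. *Nfkb2* was at 162 and 152 CPM against 91.3 and 86.0 CPM, with a log2 difference of 0.83 ± 0.16 (adjusted p = 0.00973, edgeR). *Bcl3* was at 79.8 and 84.6 CPM against 45.8 and 53.8 CPM, with a log2 difference of 0.72 ± 0.12 (adjusted p = 0.00479, edgeR). *Relb* and *Nfkbiz* also rose, but their Treg libraries lay far apart. *Relb* was at 76.9 and 110.5 CPM in KO Tregs and 47.3 and 63.5 CPM in KO non-Tregs, a log2 difference of 0.76 ± 0.18 (adjusted p = 0.0312, edgeR). *Nfkbiz* was at 363 and 247 CPM against 175 and 121 CPM, a log2 difference of 1.04 ± 0.24 (adjusted p = 0.0249, edgeR), the largest of the family by size.

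The other 4 genes did not pass in KO cells. *Nfkb1*, at 643 and 537 CPM against 476 and 399 CPM, had a log2 difference of 0.43 with a 95% interval from 0.07 to 0.80. *Nfkbie*, at 52.8 and 63.7 CPM against 44.5 and 48.5 CPM, had a log2 difference of 0.33 with an interval from 0.04 to 0.61. *Rela* and *Nfkbib* were at log2 differences of 0.09 and 0.18, both with intervals that span 0. In 10 of 10 genes both Treg libraries lay above both non-Treg libraries, a pattern that 23.6% of all genes tested showed in this direction. Leaving out either library of either KO group left 4 calls, which were *Rel*, *Nfkbia*, *Nfkb2* and *Nfkbiz* without KO FoxP3-CD25- replicate 1 or KO FoxP3+CD25+ replicate 2, and *Rel*, *Nfkbia*, *Relb* and *Bcl3* without KO FoxP3+CD25+ replicate 1 or KO FoxP3-CD25- replicate 2. *Dusp1* and *Fosb* were again higher in Tregs, and the handling list summed to 5209 to 5274 CPM in KO Tregs and 4043 to 4083 CPM in KO non-Tregs. The B cell list summed to 370 to 428 CPM against 224 to 272 CPM, with 1 of 3 tested, *Cd79b*, higher, and 3 of 5 naive T cell markers were lower. Of the antigen-experienced T cell markers 2 of 5 were lower in KO Tregs, with a summed level of 471 to 491 CPM against 1012 to 1431 CPM. Their part was not tested.

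**Figure D2:**
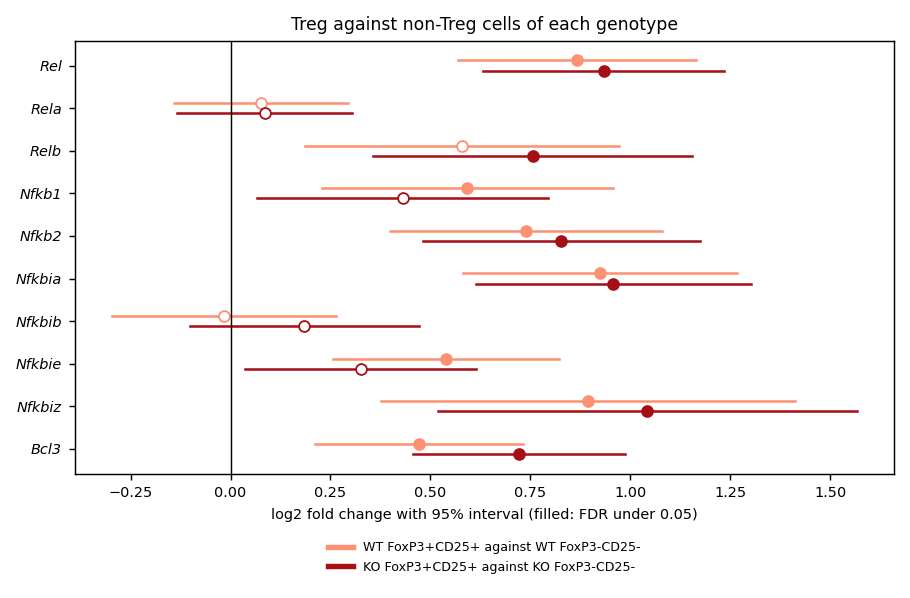
log2 fold change of Tregs against non-Tregs for each gene, in WT and in KO mice, with 95% intervals of the edgeR fit. Filled points passed FDR 0.05, 7 in WT and 6 in KO, and *Rela* and *Nfkbib* are unfilled in both genotypes.

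No WT FoxP3+CD25- group is among the libraries, so the sorted state and the loss of *Satb1* cannot be told apart. The family is next described in KO FoxP3+CD25- cells, which held FoxP3 and little *Il2ra*. *Rel* was at 104 and 93.7 CPM there, the same to 3 digits as in KO non-Tregs, and 1.91-fold lower than in KO Tregs. The log2 difference from KO Tregs was -0.93 ± 0.14 (adjusted p = 0.00200, edgeR), whereas that from KO non-Tregs was -0.0014 with a 95% interval from -0.30 to 0.30. *Nfkbia* was at 356 and 282 CPM and was lower than in KO Tregs by 1.53-fold (log2 difference -0.61 ± 0.15, adjusted p = 0.0377, edgeR). Of the 10 genes, 2 were lower than in KO Tregs and 0 higher, where 4.76% of the genes tested were lower and 2.25% higher. In 6 genes both libraries lay below both KO Treg libraries, as in 25.3% of the genes tested. *Rel* kept this call in 13 of 13 alternative settings and with any 1 of 4 libraries left out. *Nfkbia* lost it without KO FoxP3+CD25- replicate 2 or KO FoxP3+CD25+ replicate 1, which left 1 call, and *Nfkbiz* gained it without KO FoxP3+CD25- replicate 1 or KO FoxP3+CD25+ replicate 2, which made 3.

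Against KO non-Tregs 0 of the 10 genes passed (edgeR), where 0.319% of the genes tested were higher and 1.35% lower. DESeq2 also called 0, and 4 had an unadjusted p under 0.05 where 1381 of all genes tested did. *Nfkb2* alone passed, making 1 call, with the compared groups alone, with a term for WT number 1 and without both WT libraries numbered 1. Over all genes, 40 of 12745 were higher with the compared groups alone and 66 of 13796 with the term for WT number 1. With the library number as a block within genotype, *Nfkb2*, *Bcl3*, *Nfkbia* and *Relb* passed, making 4 calls (adjusted p = 0.00202, 0.0178, 0.0358 and 0.0378, edgeR). In that setting 255 of the 13796 genes tested were higher and 532 lower, against 44 and 186 without the block. The labels do not state that a number is 1 mouse. *Nfkb2* was at 133 and 127 CPM in KO FoxP3+CD25- cells, above both KO non-Treg libraries, with a log2 difference of 0.55 ± 0.16 (adjusted p = 0.137, edgeR). *Bcl3* was at 63.4 and 72.2 CPM, also above both, with a log2 difference of 0.45 ± 0.12 (adjusted p = 0.121, edgeR). *Relb* was at 78.2 and 79.3 CPM, above the 47.3 and 63.5 CPM of KO non-Tregs, with a log2 difference of 0.50 ± 0.18 (adjusted p = 0.298, edgeR). Against KO Tregs these genes did not pass either, with log2 differences of -0.28 for *Nfkb2* (95% interval -0.62 to 0.07), -0.28 for *Bcl3* (-0.54 to -0.02) and -0.25 for *Relb* (-0.64 to 0.14). *Nfkbiz*, in contrast, was at 206 and 139 CPM, overlapping the 175 and 121 CPM of KO non-Tregs, and its log2 difference from KO Tregs of -0.82 ± 0.24 narrowly missed the threshold (adjusted p = 0.0663, edgeR). Altogether 6 genes (*Nfkb2*, *Rela*, *Relb*, *Nfkbia*, *Nfkbie* and *Bcl3*) lay above both KO non-Treg libraries, as 19.2% of all genes tested did.

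Placed between KO non-Tregs at 0 and KO Tregs at 1 on the log2 scale, the KO FoxP3+CD25- mean stood at -0.0009 for *Rel*, 0.21 for *Nfkbiz*, 0.36 for *Nfkbia*, 0.61 for *Bcl3*, 0.67 for *Nfkb2* and 0.70 for *Relb*. The value for *Relb* was 1.04 and 0.40 in the libraries of either number, those for *Nfkb2* were 0.65 and 0.68, and those for *Bcl3* were 0.58 and 0.65. Over the 486 genes higher in KO Tregs than in KO non-Tregs the median position was 0.14, with quartiles at -0.12 and 0.35. The order of these positions was not tested, and both comparisons rest on the same KO FoxP3+CD25- libraries. The 486 genes were chosen on the same KO Treg and KO non-Treg libraries that set 0 and 1. Their median is therefore no separate yardstick. *Cd44*, *Cxcr3*, *Itgb1* and *S100a4*, 4 of 5 markers of antigen-experienced T cells, were lower in these cells than in KO non-Tregs, and the list summed to 151 to 181 CPM against 1012 to 1431 CPM. *Fosb*, 1 of 10 handling genes tested, was also lower. Against KO Tregs, 3 of 5 naive T cell markers were higher and 2 of 5 antigen-experienced markers were lower, with that list at 151 to 181 CPM against 471 to 491 CPM. Of the handling genes, *Fosb* and *Dusp1* were lower there, 2 of 10, with the list at 4339 to 4638 CPM against 5209 to 5274 CPM, and so was *Cd79b*, 1 of 3 B cell markers, with that list at 254 to 299 CPM against 370 to 428 CPM. The part of these differences in the NF-kappaB levels was not tested.

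**Figure D3:**
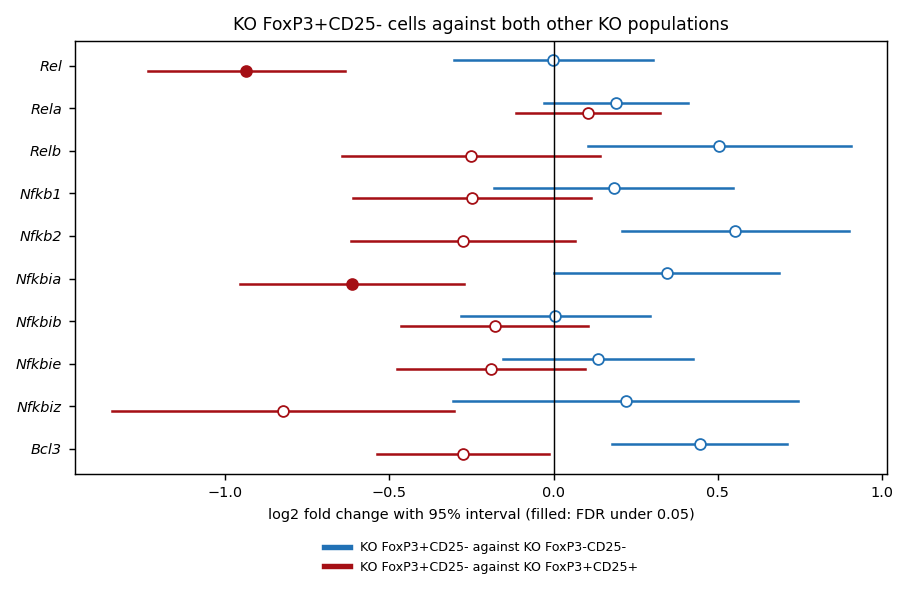
log2 fold change of KO FoxP3+CD25- cells against KO non-Tregs and against KO Tregs, with 95% intervals of the edgeR fit. Filled points passed FDR 0.05. *Rel* lies at -0.0014 against non-Tregs and -0.93 against Tregs, whereas *Nfkb2*, *Relb* and *Bcl3* lie between 0.45 and 0.55 against non-Tregs.

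The same KO FoxP3+CD25- libraries were also set against WT cells. Compared with WT Tregs, 3 genes were lower in KO FoxP3+CD25- cells, where 7.34% of the genes tested were lower and 3.88% higher. These were *Rel*, by 1.99-fold (log2 difference -0.99 ± 0.14, adjusted p = 0.000809, edgeR), *Nfkbia*, by 1.69-fold (-0.76 ± 0.15, adjusted p = 0.00888), and *Nfkbiz*, by 1.86-fold (-0.90 ± 0.24, adjusted p = 0.0330). *Relb* and *Bcl3* differed from WT Tregs by log2 values of -0.06 and -0.09, with intervals from -0.45 to 0.33 and from -0.36 to 0.17. Moving with this comparison, 4 of 5 naive T cell markers were higher, and 3 of 5 antigen-experienced, 2 of 3 B cell and 2 of 10 handling genes were lower, and their part was not tested. The count of 3 became 1, *Rel*, without KO FoxP3+CD25- replicate 2. Without WT FoxP3+CD25+ replicate 1 it was 2, as *Nfkbiz* was lost, and without WT FoxP3+CD25+ replicate 2 *Nfkb2* passed in place of *Nfkbiz*. Compared with WT non-Tregs, 0 of the 10 genes passed by edgeR, where 0.768% of the genes tested passed in either direction. DESeq2 called 0 of the 10 and 217 of all genes, and 3 of the 10 had an unadjusted p under 0.05, where 1214 of all genes did (edgeR). The log2 differences were 0.40 for *Nfkb2*, 0.52 for *Relb*, 0.38 for *Bcl3* and -0.13 for *Rel*.

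The loss of *Satb1* within a sorted population was the remaining question. In FoxP3+CD25+ cells, 0 of the 10 genes differed between KO and WT by edgeR, where 0.00725% of all genes tested passed. DESeq2 called 0 of the 10 and 5 of all genes, and 0 of the 10 had an unadjusted p under 0.05, where 593 of all genes did (edgeR). The log2 differences ran from -0.15 for *Nfkbia*, with an interval from -0.49 to 0.19, to 0.26 for *Nfkbib*, with an interval from -0.02 to 0.54. In FoxP3-CD25- cells, 0 of the 10 genes differed by edgeR, where 0.145% of all genes passed. DESeq2 called 0 of the 10 and 111 of all genes, and 0 of the 10 had an unadjusted p under 0.05, where 1106 of all genes did (edgeR). The log2 differences ran from -0.22 for *Nfkbiz*, with an interval from -0.74 to 0.30, to 0.14 for *Nfkbie*, with an interval from -0.15 to 0.43. The Treg effect in KO minus that in WT, tested as an interaction, called 0 of the 10 genes by edgeR, where 0% of all genes passed. DESeq2 also called 0 of the 10, and 25 of all genes, and 0 of the 10 had an unadjusted p under 0.05, where 685 of all genes did (edgeR). It ran from -0.21 for *Nfkbie* (interval -0.62 to 0.19) to 0.25 for *Bcl3* (interval -0.12 to 0.62). Before any alternative setting was applied, *Nfkb1* and *Nfkbie* passed in WT alone and *Relb* in KO alone, and the interaction test called none of them.

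**Figure D4:**
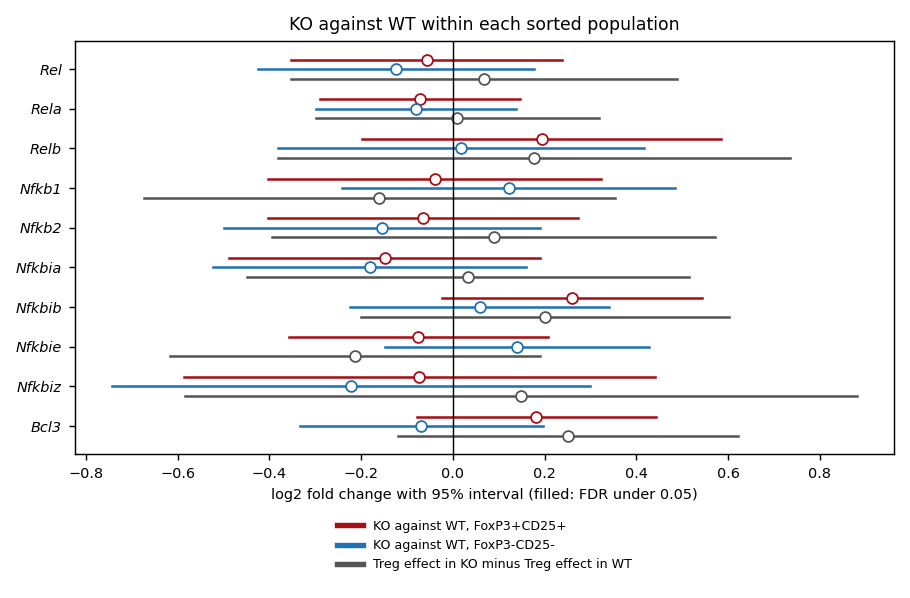
log2 fold change of KO against WT in Tregs and in non-Tregs, and the Treg effect in KO minus that in WT, with 95% intervals of the edgeR fit. No point is filled, and the KO against WT values lie between -0.22 and 0.26.

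For some of the 10 genes, the libraries of a group differed from each other by amounts that recurred across populations in KO mice. *Nfkbiz* was higher in number 1 than in number 2 by 0.56, 0.56 and 0.53 on the log2 scale in KO Tregs, KO FoxP3+CD25- cells and KO non-Tregs. *Nfkbia* was higher in number 1 by 0.34, 0.34 and 0.20, and *Nfkb1* by 0.26, 0.32 and 0.26. Differences of this size were common, since 29.0 to 50.2% of all genes tested differed more than *Nfkbia* between the same libraries, 34.2 to 41.4% more than *Nfkb1* and at most 17.8% more than *Nfkbiz*. *Relb* was lower in number 1 by -0.52, -0.02 and -0.42. *Nfkbie* (-0.27, 0.13 and -0.12) and *Nfkbib* (0.17, 0.02 and -0.16) changed sign between these populations. Named after its values were seen, *Tnfaip3*, which encodes the ubiquitin-editing inhibitor A20, differed far more, at 1823, 1850 and 1279 CPM in the number 1 libraries of these populations and 790.2, 632 and 503 CPM in number 2. *Nfkbid*, which encodes IkappaB-NS, was also higher in number 1 in all 3, at 120.4, 114 and 95.9 CPM against 75.1, 66.3 and 60.7 CPM. The heat shock gene *Hspa1a* went the other way, lower in number 1 by -2.64, -3.54 and -2.26 on the log2 scale, while the 10 handling genes tested had medians of -0.05, 0.03 and -0.12. The part of handling in these differences was not tested. In WT Tregs and WT non-Tregs the differences of number 1 from number 2 ran the same way for *Nfkb1* (0.28 and 0.29), *Nfkbiz* (0.07 and 0.33), *Tnfaip3* (0.55 and 0.74), *Nfkbid* (0.49 and 0.49) and *Hspa1a* (-1.25 and -2.75), and the other way for *Nfkbia* (-0.26 and -0.05). The WT values of *Hspa1a* rest on few reads, 2 and 8 in WT Tregs and 1 and 19 in WT non-Tregs for numbers 1 and 2.

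**Figure D5:**
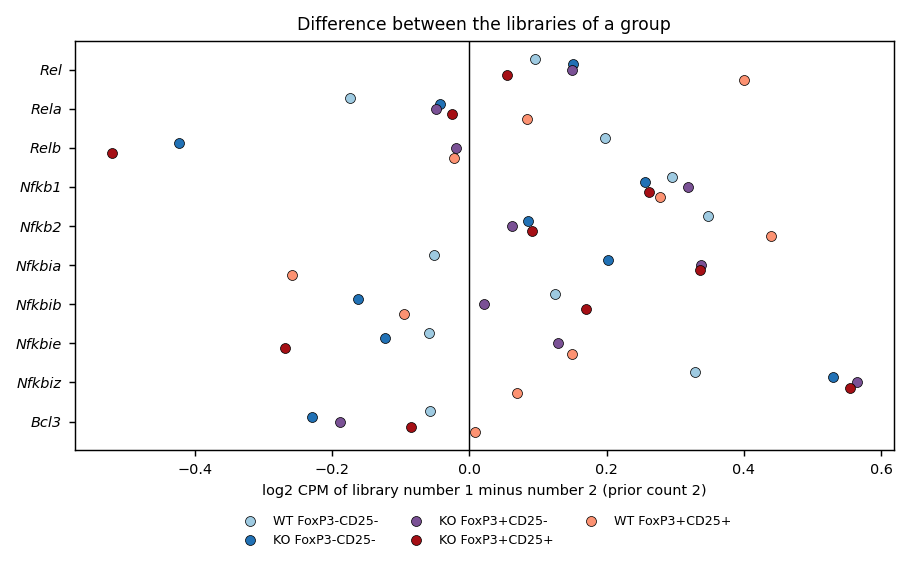
Difference between the libraries of each group, number 1 minus number 2, in log2 CPM (prior count 2), for the 10 genes in 5 groups. *Nfkbiz* lies between 0.53 and 0.56 in all 3 KO populations, and *Rela* between -0.17 and 0.08 in the 5 groups.

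Upstream and downstream genes of the pathway were counted from fixed lists. Of 13 tested receptors that feed the pathway, 6 were higher in WT Tregs and 1 lower, where 7.15% and 3.75% of all genes were. The TNF receptor family members *Tnfrsf9* (4-1BB), *Tnfrsf4* (OX40), *Tnfrsf18* (GITR) and *Tnfrsf1b* (TNFR2), which costimulate T cells, had the lowest p of the list. By size, the log2 differences of the 13 ran up to 5.26. *Tnfrsf9* was at 121 ± 6.86 CPM in WT Tregs and 9.07 ± 0.416 CPM in WT non-Tregs (SD, n = 2), a log2 difference of 3.74 ± 0.16, and at 129 ± 1.58 CPM in KO Tregs but 11.9 ± 2.87 CPM in KO FoxP3+CD25- cells. In KO, 6 of the 13 receptors were higher in Tregs and 0 lower, where 3.52% and 2.81% of all genes were. In KO FoxP3+CD25- cells 5 were lower and 1 higher than in KO Tregs, where 4.76% and 2.25% of all genes were. The median log2 differences of the 13 were 0.40 in WT and 0.60 in KO for Tregs against non-Tregs, and -1.42 for KO FoxP3+CD25- cells against KO Tregs. *Tnfrsf18* also stands on the Treg marker list.

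Kinases and adaptors showed few calls. Of 23 tested, 1 was higher and 2 lower in WT Tregs, where 7.15% and 3.75% of all genes were. *Birc3*, which encodes cIAP2 and is itself a known target of NF-kappaB, was higher in WT Tregs (log2 difference 0.50 ± 0.10). *Map3k14*, which encodes the non-canonical kinase NIK, was lower (-0.46 ± 0.09). The list's median for Tregs against non-Tregs was 0.04 in both genotypes. Of 14 brakes outside the 10 genes, 3 were higher and 0 lower in WT Tregs, beside the same 7.15% and 3.75% of all genes. These were *Tnip1*, *N4bp1* and *Otud7b*, with log2 differences of 0.66, 0.61 and 0.69. *Tnip1*, whose product acts with A20, was also higher in KO Tregs (0.77 ± 0.12) and lower in KO FoxP3+CD25- cells than in KO Tregs (-0.62 ± 0.12). *Otud7b* was at -0.0095 in KO Tregs against KO non-Tregs, and the interaction test called 0 of the 14 brakes. In KO the brakes gave 2 higher and 0 lower, and the kinases and adaptors 1 higher and 1 lower, where 3.52% and 2.81% of all genes were.

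Of 10 ligands tested, 2 were higher and 1 lower in WT Tregs, where 7.15% and 3.75% of all genes were. *Lta*, which encodes lymphotoxin-alpha, was higher in Tregs of both genotypes (log2 differences 1.11 and 1.80), and *Cd40lg*, the helper ligand of conventional CD4+ T cells, was lower in both (-2.10 and -1.58). *Tnfsf11*, which encodes RANKL, was higher in WT Tregs (1.27 ± 0.26) and stood at -0.11 ± 0.25 in KO. The interaction test of the Treg effect in KO minus that in WT called 0 of the 10 ligands. *Tnfsf11* was also lower in KO FoxP3+CD25- cells than in KO non-Tregs (-2.48 ± 0.29), as 3 ligands were, where 1.35% of all genes were lower. Of 22 known target genes tested, 11 were higher and 2 lower in WT Tregs, with a median log2 difference of 0.82. In KO, 8 were higher and 1 lower, with a median of 0.44. The shares of all genes higher and lower were 7.15% and 3.75% in WT, and 3.52% and 2.81% in KO. *Il2ra*, on which the cells were sorted, led the list and is no independent finding. *Cd83*, *Ebi3* and *Bcl2l1*, the others named by lowest p, were at log2 differences of 3.92, 3.84 and 1.36 in WT and 3.10, 2.39 and 1.02 in KO. *Cd83*, a surface glycoprotein of activated lymphocytes, was at 89.1 ± 10.6 CPM in WT Tregs, 82.1 ± 5.63 CPM in KO Tregs and 4.80 ± 0.755 CPM in KO FoxP3+CD25- cells (SD, n = 2). Of the 22 targets, 9 were lower in KO FoxP3+CD25- cells than in KO Tregs and 0 higher, where 4.76% and 2.25% of all genes were. The lists hold several genes also known as Treg markers, so their counts are not separate from the sort.

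*Nfkbiz* varied most of the 10 genes over the 10 libraries, with a variance of 0.30 in log2 CPM, followed by *Rel* at 0.24 and *Nfkbia* at 0.23, whereas *Rela* had 0.0072. The genes whose log2 CPM was most like that of *Nfkbiz* were *Apol9b*, *Metap2*, *Shmt1*, *Ubash3a* and *Arl5a*, with Pearson's r from 0.95 to 0.97 over the 10 libraries. The libraries share groups, so these values are a description.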

How the data were processed

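RNA of sorted splenic CD4+ T cells was sequenced in 10 libraries. The authors used HISAT2 2.1.0 for alignment to mm10 and HTSeq, 0.11.1 in the submitters' notes, for counting, and the deposited files hold raw counts per gene. The strand setting is not given in the sources used here. HTSeq's closing rows, which name no gene, were left out of library sizes. Over all rows, 26.0 to 28.5% of reads were assigned to genes and 34.4 to 42.5% had no feature. Counts were fitted in edgeR 4.0.16 (R 4.3.3) in 1 model of all 10 libraries with a mean per group, TMM factors, a minimum count of 10 by filterByExpr, the quasi-likelihood F-test and Benjamini-Hochberg adjustment over 13796 genes. The fit was tested on simulated counts, drawn independently for each library and with the same dispersion for every gene. That test therefore does not cover the likeness of same-numbered libraries seen here. Intervals are 95% and cover the fitted spread. Symbols were matched to GENCODE M21 (GRCm38) for positions and lengths, with 95.8% matching 1 gene, and promoters came from RefSeq GRCm38.p6. Alternatives changed the filter, scaling, test (DESeq2 1.42.0), samples or covariates. The 10 genes and all lists were chosen with earlier results of these data known. Named genes were the 10, the sort and deletion genes, at most 4 per pathway list of lowest p passing in WT Tregs against non-Tregs, and the 5 most like the most variable of the 10. Marker and handling genes that passed a test are named from their lists, and *Tnfaip3*, *Nfkbid*, *Hspa1a* and *Ms4a1* were named after their values were seen. Some list members are not reported by name here.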

Additional observations from a re-analysis of the deposited data

How the results depend on the processing

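With 2 libraries a group, 1 library decides many calls. For WT Tregs against WT non-Tregs the 7 calls became 3 without both WT libraries numbered 1 and 3 at FDR 0.01, and 2 to 6 with 1 library left out. For KO FoxP3+CD25- against KO non-Tregs the count of 0 became 1 (*Nfkb2*) with the compared groups alone, with a term for WT number 1, and without both WT libraries numbered 1. For KO FoxP3+CD25- against KO Tregs the 2 calls became 1 with the compared groups alone and 1 at FDR 0.01, and 1 to 3 with 1 library left out, and against WT Tregs 1 to 3. The cause was not tested. The numbers in the titles do not say that libraries share a mouse. Number 1 minus number 2 correlated across genes by 0.30 between the WT populations, 0.42 to 0.44 among the KO populations and -0.01 to 0.11 between genotypes. With the number as a replicate block, KO FoxP3+CD25- against KO non-Tregs had 2 calls (*Nfkb2*, *Bcl3*), and with a block within genotype 4 (adding *Relb* and *Nfkbia*), and 5 against KO Tregs (*Rel*, *Nfkbia*, *Nfkb1*, *Nfkb2*, *Nfkbiz*). No other count of calls moved by over 1.5 times under either block.

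Values near 0 changed sign. *Rel* in KO FoxP3+CD25- against KO non-Tregs was 0.00238 with no filter, 0.000229 with RLE factors and 0.00019 by DESeq2, and -0.082 to 0.075 with 1 library left out. *Nfkbib* there was -0.014 by library size alone, and -0.075 to 0.090 with 1 library left out, and *Nfkbiz* was -0.093 to 0.50. In WT Tregs against WT non-Tregs *Nfkbib* was 0.0057 with the compared groups alone and 0.10 without both WT libraries numbered 1, where *Rela* was -0.047. With 1 library left out they were -0.077 to 0.040 and -0.020 to 0.16. *Relb* against KO Tregs was -0.49 to 0.035, and KO against WT was -0.32 to 0.011 for *Nfkbia* in Tregs and -0.50 to 0.020 for *Nfkbiz* in non-Tregs. KO against WT also changed sign for *Nfkb1*, *Nfkb2*, *Rel*, *Relb*, *Nfkbie* and *Nfkbiz* in Tregs. In non-Tregs it did for *Nfkb1*, *Nfkb2*, *Rela*, *Relb*, *Nfkbib* and *Bcl3*. The interaction changed sign for *Nfkb2*, *Rel*, *Rela*, *Relb*, *Nfkbia* and *Nfkbiz*. KO FoxP3+CD25- cells did for *Nfkbia* and *Nfkbiz* against WT non-Tregs and *Rela* against WT Tregs. No called value changed sign in any setting run. By the longest transcript *Nfkb1* in WT Tregs moved from 50.3 to 146 CPM per kilobase.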
